A study of Mus musculus with 36 samples.

Results

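The miRNAs described here are the mature products of 4 hairpins that are abundant in blood cells: miR-21, miR-142 and the neighbouring pair miR-191 and miR-425. They were chosen by name, as every miRNA of the deposited table called miR-21a, miR-21b, miR-21c, miR-142, miR-142a, miR-142b, miR-191 or miR-425 with any arm suffix. This gave 8 of 469 miRNAs, the 5p and the 3p arm of miR-21a, miR-142, miR-191 and miR-425, and the other 4 names had 0 entries. The most abundant of them are listed there as mmu-miR-191-5p and mmu-miR-21a-5p, written here without the species prefix. The 8 together held between 20.5% and 38.3% of the antilog total of a sample (median 30.9% over 36 samples), where the antilog total is the sum over all miRNAs of 2 raised to the deposited log2 value.

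The study followed the mouse pre-B cell line B3 for 24 h. The Ikaros line carried an MSCV retroviral vector for haemagglutinin-tagged wild type Ikaros fused to the hormone-binding domain ERt2 of the estrogen receptor, with an internal ribosomal entry site and GFP, and the control line carried the ERt2 vector without Ikaros. Cells of both lines were collected at 0, 2, 6, 12, 18 and 24 h with 3 samples in each of the 12 groups of line and time. The labels give every sample 4-hydroxytamoxifen (4-OHT), the ligand that moves an ERt2 fusion into the nucleus, at 0.5 uM, while the study's methods describe 0 h as cells without the drug. Both lines are transduced populations of 1 cell line, and the Ikaros line carries its vector at 0 h too. Samples with the same replicate number (1, 2 or 4) come from the same culture batch in both lines, batches 4, 5 and 6 at 0 h and batches 1, 2 and 3 at 2 to 24 h.

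A miRNA hairpin is cut by Drosha and Dicer into a short duplex with a 5p and a 3p strand, and the strand that is kept in an Argonaute protein finds its targets mainly through the seed, the bases 2 to 8 of its 5′ end. miR-142 is largely restricted to blood cells, where it is among the miRNAs used to mark the haematopoietic lineage. miR-21 is made in most tissues and is often raised in tumours and in activated lymphocytes. miR-191 and miR-425 are cut from the same primary transcript. Ikaros, encoded by Ikzf1, is a zinc finger factor that B cell precursors need to leave the cycling pre-B stage.

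The mature sequences are shown because the arms of each hairpin were measured separately and no seed is shared between them. They are RefSeq entries on GRCm38.p6, written 5′ to 3′ with the seed in capitals.
miR-21a-5p: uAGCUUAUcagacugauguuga
miR-21a-3p: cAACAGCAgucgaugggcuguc
miR-142-5p: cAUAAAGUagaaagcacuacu
miR-142-3p: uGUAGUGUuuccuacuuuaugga
miR-191-5p: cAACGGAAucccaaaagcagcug
miR-191-3p: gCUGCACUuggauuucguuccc
miR-425-5p: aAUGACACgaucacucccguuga
miR-425-3p: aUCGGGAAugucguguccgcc
The 8 seeds all differ, and none was found in another of the 395 table names, of 469, that matched a RefSeq entry. The table's miR-142-5p and miR-142-3p were matched to the RefSeq names miR-142a-5p and miR-142a-3p.

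The Mir21a hairpin lies at chr11:86584067-86584158 on the minus strand, inside the last exon of the protein-coding gene Vmp1, in its 3′ untranslated region. Mir142 lies at chr11:87756864-87756927 on the plus strand, in an intron of the long non-coding RNA gene Mir142hg, and the annotated hairpin Mir142b covers it on the opposite strand at chr11:87756841-87756955. Mir191, at chr9:108568319-108568392, and Mir425, at chr9:108568777-108568861, lie on the plus strand with 384 bases between them. Both sit in the exon of a transcript of the long non-coding RNA gene 4833445I07Rik, and a shorter transcript of that gene has Mir191 in an intron. These are the positions of GENCODE on the mouse build mm10, the build that the labels name.

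The pre-B label was compared with marker miRNAs. All 5 B-lineage markers were in the table. Their summed share was 21.1 to 35.7% in the control line and 13.3 to 29.2% in the Ikaros line, most of it miR-181a-5p (mean log2 value 18.15). The other B-lineage means were 14.62 for miR-142-5p, 13.21 for miR-142-3p, 10.77 for miR-155-5p and only 3.90 for miR-150-5p. Both arms of miR-142 are also members here. Of 2 myeloid markers only miR-223-3p was in the table, at a mean log2 value of 2.11, and none of the 3 erythroid, 3 muscle or 1 liver markers was. Other lineages were seen at 1 of 2 endothelial (miR-126a-3p, mean 6.50), 1 of 4 mesenchymal (miR-143-3p, mean 1.13), 4 of 5 epithelial (highest mean 4.74) and 1 of 2 neural markers (miR-9-5p, mean 13.30). Whether markers of other lineages have a part in the results was not tested. The share of miR-9-5p was 0.616 to 0.867% in the control line and 0.506 to 0.778% in the Ikaros line. Its mean log2 value was above those of the B-lineage markers miR-142-3p, miR-155-5p and miR-150-5p. The share of miR-126a-3p was 0.00221 to 0.00586% in the control line and 0.00454 to 0.0146% in the Ikaros line. The ranges of every list in the table overlapped between the lines. In a bulk sample, fewer cells with a miRNA and less of it in each cell cannot be told apart. The spread between samples of a group was widest at 12 h, with a median standard deviation (SD) over all miRNAs of 0.43 on the log2 scale, against 0.27 to 0.37 at the other times.

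A share here is a share of normalized values, corrected by the authors for GC content, and not a share of reads, and the number of reads behind a value is unknown. miR-191-5p was the most abundant miRNA of the table, with a mean share of 25.9% and a range of 16.6 to 34.5% over 36 samples. It ranked first in 27 samples and second in the other 9, and it lay above the next miRNA by mean share, miR-181a-5p, in 30 of 36 samples. miR-21a-5p ranked sixth by mean share, at 2.32% (1.16 to 3.46%), and miR-142-5p eighth, at 1.92% (0.772 to 3.37%). Their places are not separated from those of their neighbours: miR-21a-5p was above miR-181b-5p in 20 of 36 samples, and miR-142-5p was above let-7f-5p in 26 of 36. The other members were less abundant, with a mean share of 0.723% for miR-142-3p, 0.207% for miR-425-5p, 0.0886% for miR-21a-3p, 0.0217% for miR-191-3p and 0.00446% for miR-425-3p. The mature forms of the 8 are 21 to 23 bases long, with a GC content of 33.3 to 61.9%. Order between different miRNAs is that of the normalized values, since adapter ligation favours some sequences over others and the values were corrected for GC content.

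**Figure D1:**
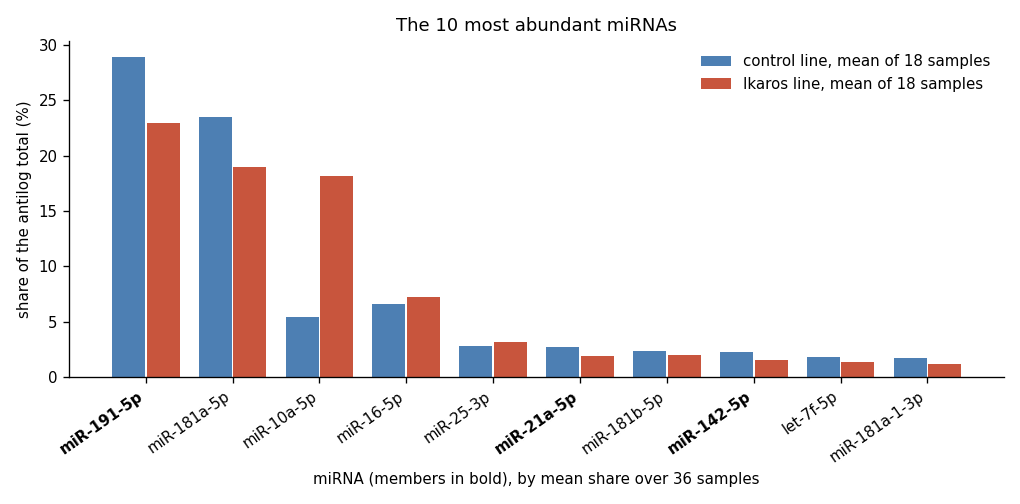
Bars give the mean share of the antilog total (in percent, from 0) over 18 samples of the control line and 18 of the Ikaros line for the 10 most abundant miRNAs, with members in bold. miR-191-5p is the tallest pair (29.0% and 22.9%), and miR-10a-5p, which is no member, has the widest gap between the lines (5.40% and 18.13%).

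miR-21a-5p, the arm of miR-21 that is loaded in most cells, was the member that changed most clearly, low in the Ikaros line at the start and high at 24 h. At 0 h its normalized log2 values were 15.20, 15.16 and 15.34 in the control line and 14.39, 14.29 and 14.59 in the Ikaros line. At 2 h they were 15.13, 15.10 and 15.15 in the control line and 14.09, 14.32 and 14.52 in the Ikaros line. At 6 h they were 15.02, 15.30 and 15.31 in the control line and 14.42, 14.16 and 14.38 in the Ikaros line. At each of these times every Ikaros sample lay below every control sample, and the values of the 2 lines did not overlap. At 12 h the control values were 14.98, 15.22 and 15.16 and the Ikaros values 14.66, 14.47 and 14.70. At 18 h the control values were 15.02, 15.41 and 15.45 and the Ikaros values 14.83, 15.20 and 15.20. At 24 h the control values were 14.90, 15.01 and 15.01 and the Ikaros values 15.39, 15.34 and 15.38. The lines were still apart at 12 h, overlapped at 18 h, and at 24 h were apart again in the other direction, with every Ikaros sample above every control sample. Over the 12 groups the SD of miR-21a-5p had a median of 0.13 and was at most 0.24, while the medians of the other members lay between 0.17 and 0.60.

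**Figure D2:**
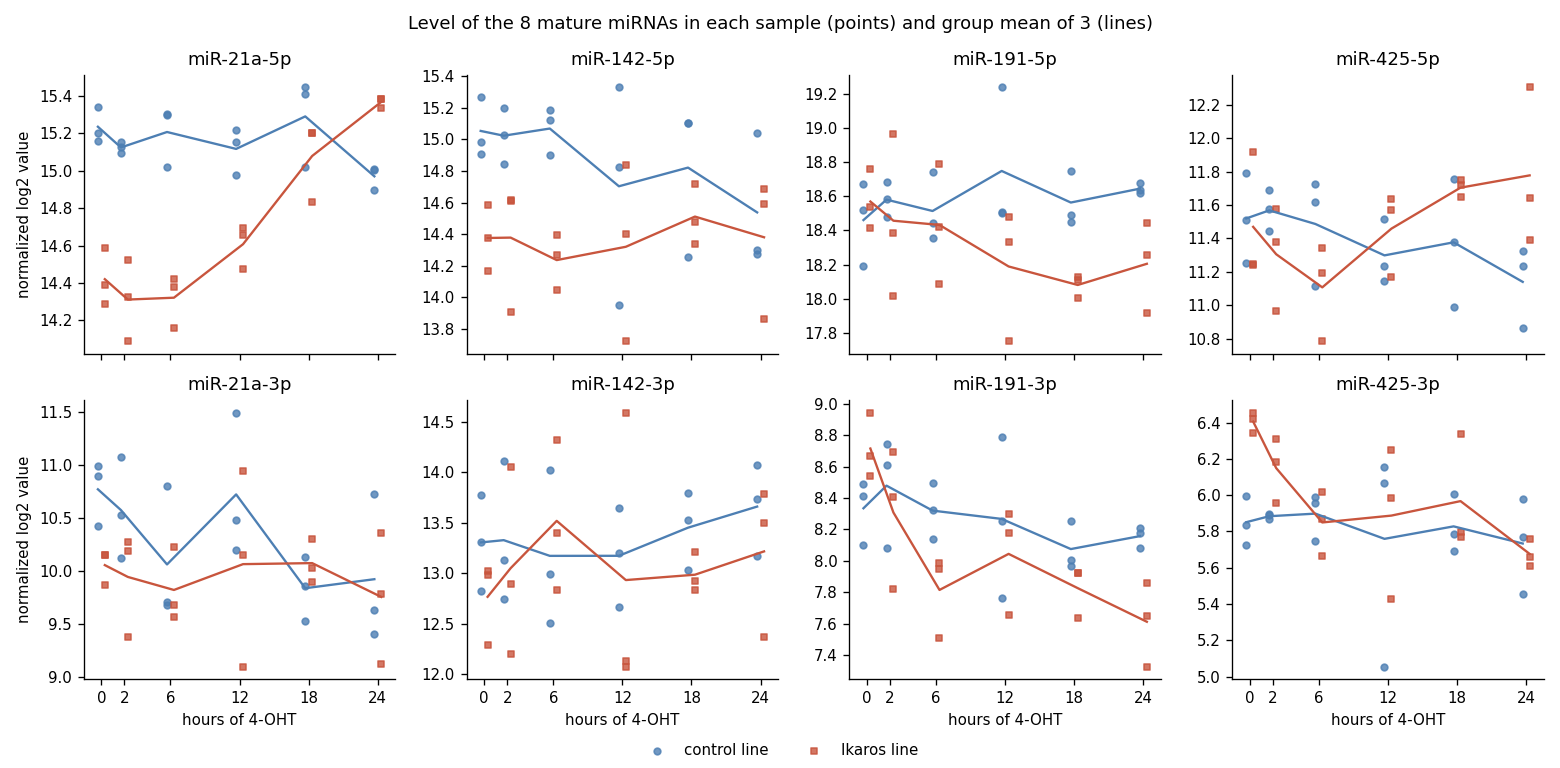
Each panel plots the normalized log2 value (y axis, own scale in each panel) of 1 member against hours of 4-OHT, with 1 point for each sample and a line through the group means of 3. The Ikaros line (squares) of miR-21a-5p climbs from a mean of 14.42 at 0 h to 15.37 at 24 h, while the control line (circles) stays between 14.97 and 15.29.

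The difference between the lines was tested for each time with limma, fitted to all 469 miRNAs and 36 samples with p-values adjusted over the 469 (Benjamini-Hochberg). miR-21a-5p was lower in the Ikaros line by a log2 difference of -0.81 ± 0.14 (SE, n = 3 a group) at 0 h, adjusted p = 0.000124 by limma. The log2 difference was -0.81 at 2 h (adjusted p = 8.18e-05) and -0.89 at 6 h (adjusted p = 3.48e-05), and 12 h gave -0.51 (adjusted p = 0.00803), all with an SE of 0.14. The 12 h call was lost without replicate 2 (-0.39, adjusted p = 0.256), in a fit to the 2 groups alone (adjusted p = 0.276) and with the median of each sample subtracted (-0.44, adjusted p = 0.0593), and the 2 h call in a fit to its 2 groups (adjusted p = 0.0513). A log2 difference of -0.89 is a level 1.85 times lower. At 18 h the log2 difference was -0.21 (95% interval -0.49 to 0.07, adjusted p = 0.261), which did not pass. At 24 h miR-21a-5p was higher in the Ikaros line by 0.40, or 1.32-fold (adjusted p = 0.0219). The 24 h call was lost when any replicate number was left out (log2 difference 0.35 to 0.43, adjusted p 0.0940 to 0.140). With quantile normalization of the 36 samples the difference was -0.04 at 24 h (adjusted p = 0.887) and missed the threshold at 0, 2 and 12 h (0 h -0.46, adjusted p = 0.134). Averaged over the 6 times the log2 difference was -0.47 (adjusted p = 2.29e-08), and over 0 and 24 h alone, where the signs are opposite, -0.21 (adjusted p = 0.0742). The fit treats all 36 samples as independent. The 2 to 24 h samples of 1 line and replicate number were flasks split from 1 expanded culture. The limma p-values of averages over time, for all members, may therefore be too small.

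The change of the difference itself was also tested. The line difference at 24 h exceeded that at 0 h by 1.21 ± 0.20 on the log2 scale (adjusted p = 7.34e-05 by limma), and that at 2 h by 1.21 (adjusted p = 4.47e-05), where 2 h and 24 h share their culture batches. In the Ikaros line miR-21a-5p rose by 0.95 between 0 and 24 h (1.93-fold, adjusted p = 5.10e-06) and by 1.06 between 2 and 24 h (2.08-fold, adjusted p = 8.91e-07). In the control line the same log2 changes were -0.27 and -0.15, with adjusted p of 0.948 and 0.775. The test of a line by time interaction over 6 times gave an adjusted p of 6.58e-05, which became 0.0779 without replicate 2. With quantile normalization the excess over 0 h was 0.43 (adjusted p = 0.283) and the rise from 0 h in the Ikaros line 0.32 (adjusted p = 0.183), while the rise from 2 h stayed past the threshold at 0.61 (adjusted p = 0.0132).

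The libraries were prepared and sequenced on 2 occasions. As read from the study's drawing of its design, since the labels do not give the occasion, the first covered the whole Ikaros course together with the control line at 0 and 24 h, the second covered the control line at 2 to 18 h, and some samples were repeated in both for the authors' batch correction. The study's text describes a batch effect between time points of the Ikaros line before that correction, so this reading is uncertain. On this reading, the line and the sequencing occasion cannot be told apart at 2 to 18 h outside that correction. The differences of miR-21a-5p at 0 h and at 24 h would then rest on times at which both lines were in the first occasion. Their values passed through the correction too. Fitted on the samples of 0 h and 24 h alone, the excess of the miR-21a-5p difference at 24 h over that at 0 h had an adjusted p of 0.000404 by limma. Its estimate of 1.21 is a difference of the same group means and could not change, so only the spread was estimated anew. Whether the sequencing occasion has a part in it was not tested.

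Of the 8 members, 1 passed the test between the lines at 0 h, where 8.53% of all 469 miRNAs did. It was again 1 at 2, 6 and 12 h, where the background was 11.3%, 15.1% and 21.7%, then 0 at 18 h (29.9%) and 2 at 24 h (39.9%). All of these were miR-21a-5p, joined at 24 h by miR-425-5p. At 18 h 183 of the 469 miRNAs had an unadjusted p under 0.05, and 140 an adjusted one. For the difference averaged over the 6 times 3 of 8 passed, all lower, against a background of 52.5% in both directions and 26.4% lower. For the excess of 24 h over 0 h 1 of 8 passed and was higher, against 5.76% higher, and for that over 2 h 1 of 8, against 14.3%. With the culture batch as a block, 2 of 8 passed the latter, since miR-425-5p joined. The interaction test took 1 of 8, against 13%. The median log2 difference of the 8 averaged over time was -0.27, against 0.03 for all 469, and at 24 h it was -0.16, against -0.07. These counts lie near or below the background, and the description that follows is of single members.

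**Figure D3:**
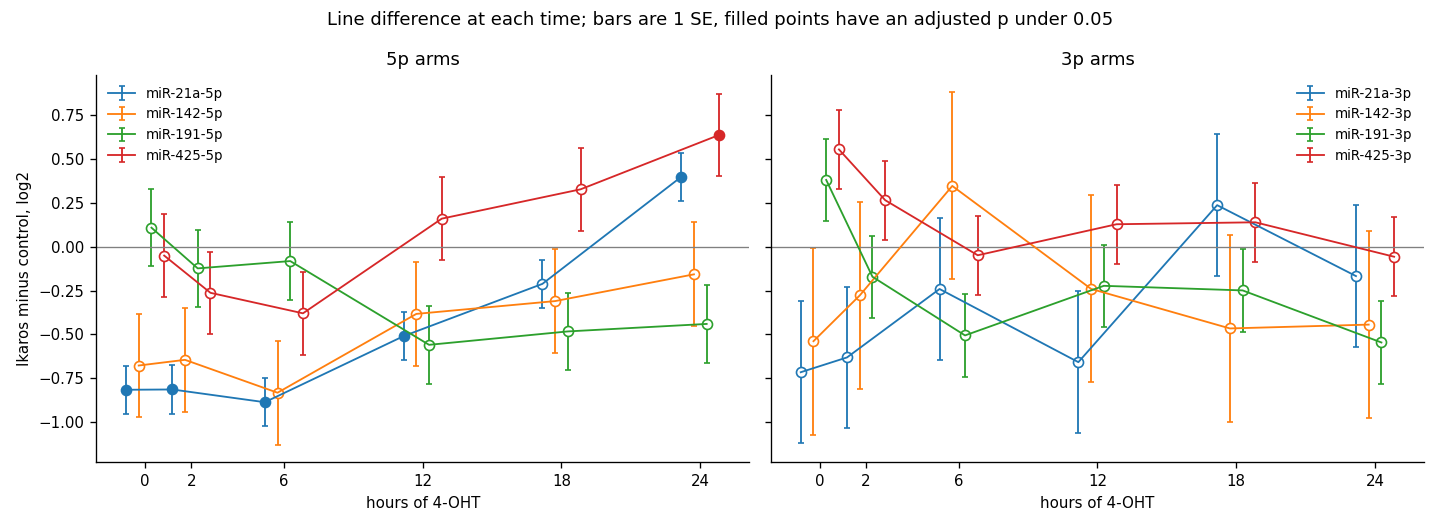
The log2 difference Ikaros minus control (y axis) of each member is plotted against hours of 4-OHT, shifted sideways for display, with 5p arms on the left and 3p arms on the right. Bars are 1 SE of the limma fit, filled points passed an adjusted p of 0.05, and all 6 filled points belong to miR-21a-5p or, at 24 h, miR-425-5p.

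miR-21a-3p, the strand of the same hairpin that is usually discarded, was 4.79 log2 units below miR-21a-5p on average. Its log2 values ran from 9.41 to 11.49 (median 10.31) in 18 control samples and from 9.10 to 10.94 (median 10.09) in 18 Ikaros samples, so the lines overlapped widely. None of its comparisons passed in the fit to all samples. At 0 h the Ikaros values (9.86, 10.15 and 10.15) lay below the control values (10.43, 10.89 and 10.99), with a log2 difference of -0.71 (adjusted p = 0.414), which passed in a fit to the 2 groups alone (adjusted p = 0.0214). Averaged over time the log2 difference was -0.36 (adjusted p = 0.0642). Between 0 and 24 h its log2 change was -0.30 in the Ikaros line (adjusted p = 0.627) and -0.85 in the control line (adjusted p = 0.948). The log2 ratio of the arms in the Ikaros line was 4.53, 4.14 and 4.44 at 0 h and 6.26, 5.56 and 5.03 at 24 h. Those ranges did not overlap, whereas the control ratios (4.78, 4.27 and 4.35 at 0 h, 5.27, 5.60 and 4.28 at 24 h) did. These changes with time were not tested. At 24 h the ratios of the 2 lines overlapped. Averaged over time the line difference of this ratio was -0.11 (unadjusted p = 0.556 by permutation of line labels).

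miR-142-5p, an abundant arm of the blood-cell hairpin, was lower in the Ikaros line on average over the course, and its samples were apart at the first 3 times. At 0 h its log2 values were 14.91, 14.98 and 15.27 in the control line and 14.17, 14.38 and 14.58 in the Ikaros line. At 2 h they were 15.03, 15.20 and 14.85 against 14.61, 14.62 and 13.91, and at 6 h 14.90, 15.18 and 15.12 against 14.04, 14.27 and 14.39. Every Ikaros sample lay below every control sample at these 3 times. At 12 h the control values were 15.33, 13.95 and 14.83 and the Ikaros values 14.84, 13.72 and 14.40. At 18 h they were 14.26, 15.10 and 15.10 against 14.34, 14.48 and 14.72, and at 24 h 14.27, 14.30 and 15.04 against 13.86, 14.59 and 14.68. The lines overlapped at these later times, and the control value of replicate 2 at 12 h was the lowest of the control line.

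At 0, 2 and 6 h the log2 difference of miR-142-5p was -0.68, -0.64 and -0.83 (adjusted p = 0.221, 0.158 and 0.0556), none past the threshold in the fit to all samples. In a fit to the 2 groups alone the 0 h and 6 h differences passed (adjusted p = 0.0192 and 0.00787), and without the 12 h samples that of 6 h did (adjusted p = 0.0162). At 24 h the difference was -0.16 (95% interval -0.76 to 0.45). Averaged over the 6 times miR-142-5p was lower in the Ikaros line by a log2 difference of -0.50 ± 0.12 (1.41 times lower, adjusted p = 0.000891 by limma), and the interaction with time had an adjusted p of 0.764. Averaged over 0 h and 24 h alone it was -0.42 (adjusted p = 0.0627), and with quantile normalization -0.28 (adjusted p = 0.142).

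miR-142-3p, the other arm of the hairpin, is a strand that is also kept and active in lymphocytes. It was the member with the widest spread, with a median SD of 0.60 over the 12 groups and a largest SD of 1.43, in the Ikaros line at 12 h, where the samples were at 12.13, 12.08 and 14.59. Its log2 values ran from 12.51 to 14.11 (median 13.26) in the control line and from 12.08 to 14.59 (median 12.95) in the Ikaros line. Its log2 values overlapped between the lines at every time, and none of its log2 comparisons passed in the fit to all samples, while its share of the total passed a paired test that is given with the other shares. The log2 differences lay between -0.54 at 0 h and 0.35 at 6 h, with an SE of 0.53, and the 95% interval at 0 h ran from -1.63 to 0.55, which takes in a level 2 times lower. The average over time was -0.27 (adjusted p = 0.303). The 5p arm exceeded the 3p arm in 33 of 36 samples, with a median log2 ratio of 1.47 and a range of -0.28 to 2.70.

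miR-191-5p, the most abundant miRNA of the table, was lower in the Ikaros line on average over the course, and its samples were apart at the last 3 times. At 0 h its log2 values were 18.67, 18.52 and 18.19 in the control line and 18.53, 18.76 and 18.41 in the Ikaros line. At 2 h they were 18.68, 18.48 and 18.58 against 18.02, 18.39 and 18.97, and at 6 h 18.74, 18.36 and 18.44 against 18.79, 18.08 and 18.42. The lines overlapped at all 3. At 12 h the control values were 18.50, 19.24 and 18.50 and the Ikaros values 17.75, 18.48 and 18.33. At 18 h they were 18.75, 18.49 and 18.45 against 18.00, 18.11 and 18.13, and at 24 h 18.68, 18.62 and 18.64 against 18.44, 18.25 and 17.92. From 12 h on every Ikaros sample lay below every control sample, at 12 h by a narrow margin.

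In spite of that order no single time passed the test. The log2 difference of miR-191-5p was 0.11 at 0 h (adjusted p = 0.904) and -0.12 at 2 h (adjusted p = 0.823). At 12, 18 and 24 h it was -0.56, -0.48 and -0.44 with an SE of 0.22 and adjusted p between 0.0683 and 0.112, and in a fit to the 2 groups alone that of 18 h passed (adjusted p = 0.0210). Averaged over time it was -0.26 ± 0.09 (adjusted p = 0.0158 by limma). That call was lost without replicate 1 (-0.19, adjusted p = 0.125) or replicate 2 (-0.26, adjusted p = 0.0939), and without the 12 h samples (-0.20, adjusted p = 0.0536). It was also lost with the median of each sample subtracted (-0.14, adjusted p = 0.245) and with quantile normalization (-0.09, adjusted p = 0.259). The excess of the 24 h difference over 0 h was -0.55 (adjusted p = 0.258), and the change of the Ikaros line over those 24 h -0.36 (adjusted p = 0.229).

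miR-191-3p, the rare strand of the same hairpin, fell in the Ikaros line. Its log2 values there were 8.54, 8.67 and 8.94 before induction, then 8.69, 8.41 and 7.82 after 2 h, and 7.33, 7.65 and 7.86 after 24 h. The 24 h samples lay below all those of 0 h. In the control line they were 8.10, 8.41 and 8.49 at 0 h and 8.08, 8.18 and 8.21 at 24 h, which overlapped. The Ikaros line changed by a log2 value of -1.10 ± 0.23 between 0 and 24 h (2.15 times lower, adjusted p = 0.000694 by limma) and by -0.70 between 2 and 24 h (adjusted p = 0.0266), while the control line changed by -0.18 from 0 h (adjusted p = 0.948). The fall from 2 h was lost without replicate 1 (-0.36, adjusted p = 0.387) and without replicate 2 (-0.66, adjusted p = 0.196). The test over all 6 times in the Ikaros line had an adjusted p of 0.00480, which became 0.0636 without replicate 1 and 0.188 without replicate 2.

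Between the lines miR-191-3p went from a log2 difference of 0.38 at 0 h (adjusted p = 0.504), where every Ikaros sample was above the controls, to -0.55 at 24 h (adjusted p = 0.0633), where every one was below. The 24 h difference passed in the fit to its 2 groups (adjusted p = 0.0447) and without the 12 h samples (adjusted p = 0.0318). The excess of the 24 h difference over that of 0 h was -0.93 (adjusted p = 0.0656), and it passed in the fit to those 4 groups (adjusted p = 0.0205) and without the 12 h samples (adjusted p = 0.0285). The 5p arm was 10.29 log2 units above the 3p arm on average, the widest arm ratio of the 4 hairpins, with a range of 9.32 to 11.48.

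miR-425-5p, the other product of the miR-191 transcript, was higher in the Ikaros line at 24 h. Its log2 values at 24 h were 10.86, 11.33 and 11.23 in the control line and 11.39, 11.64 and 12.30 in the Ikaros line, with every Ikaros sample above the controls. At 0 h they were 11.26, 11.51 and 11.79 against 11.25, 11.24 and 11.92, which overlapped. The log2 difference was -0.05 before induction (adjusted p = 0.977), -0.38 at 6 h (adjusted p = 0.343) and, at the last time, 0.64 ± 0.23 (1.56-fold higher, adjusted p = 0.0306 by limma). The 24 h call was lost without replicate 2 (0.80, adjusted p = 0.108), without replicate 4 (0.42, adjusted p = 0.185), in the fit to the 2 groups (adjusted p = 0.0609) and with quantile normalization (0.56, adjusted p = 0.0834). The excess of the 24 h difference over 2 h was 0.90 (adjusted p = 0.0662), and 0.0494 with the culture batch as a block. Its log2 change in the Ikaros line over 24 h was 0.31 (adjusted p = 0.344), and averaged over time the lines differed by 0.07 (adjusted p = 0.531).

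miR-425-3p was the least abundant member, with log2 values from 5.06 to 6.45. In the Ikaros line it fell from 6.45, 6.42 and 6.34 at 0 h to 5.61, 5.66 and 5.76 at 24 h, a log2 change of -0.73 ± 0.23 (1.66 times lower, adjusted p = 0.0149 by limma). This call was lost without replicate 1 (-0.67, adjusted p = 0.116) or replicate 2 (-0.71, adjusted p = 0.0950). Between 2 and 24 h, which share culture batches as 0 and 24 h do not, the change was -0.47 (adjusted p = 0.118 by limma). The limma test over all 6 times in the Ikaros line had an adjusted p of 0.135. The excess of the 24 h line difference over that of 0 h was -0.61 (adjusted p = 0.224). The control samples were at 5.72, 5.83 and 5.99 at 0 h, all below the Ikaros samples, and the log2 difference there was 0.55 (adjusted p = 0.168), with an adjusted p of 0.0306 without the 12 h samples. Averaged over time it was 0.16 (adjusted p = 0.136), and 0.29 with the median of each sample subtracted (adjusted p = 0.00738).

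Between 0 and 24 h the Ikaros line had 3 of 8 members changed, miR-21a-5p up and miR-191-3p and miR-425-3p down, where 30.7% of all 469 miRNAs did. Between 2 and 24 h 2 of 8 changed, against 28.6%, and over all 6 times 2 of 8, against 26.7%. In the control line 0 of 8 members and 0 of 469 miRNAs passed limma's test from 0 h to 24 h, with 16 of the 469 at an unadjusted p under 0.05. From 2 h to 24 h the control counts were again 0 of 8 and 0 of 469, with 33 at an unadjusted p under 0.05. Over all 6 times 0 of 8 passed in the control line, against 0.426%.

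Counted without a test, 5 of 8 members had values that did not overlap between the lines at 0 h, where 26.2% of all miRNAs had none. It was 3 at 2 and 6 h (background 26% and 34.3%), 2 at 12 and 18 h (25.6% and 47.5%) and 4 at 24 h (54.2%). The 5 at 0 h were miR-21a-5p, miR-21a-3p and miR-142-5p, lower in the Ikaros line, and miR-191-3p and miR-425-3p, higher. The 4 at 24 h were miR-21a-5p and miR-425-5p, higher, and both arms of miR-191, lower.

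As a share of the antilog total the 8 members held less in the Ikaros line, given here as a description with no test of the sum. Their summed share at 0 h was 35.998, 34.102 and 30.558% in the control line and 30.435, 33.133 and 28.855% in the Ikaros line. At 24 h it was 36.7, 35.5 and 36.2% in the control line and 27.9, 25.2 and 24.5% in the Ikaros line. The lines overlapped at 0 h and did not at any of the 5 later times. Over all samples the mean was 35.1% against 27.3%, and the Ikaros sample was the lower one in 18 of 18 same-numbered pairs, with a pooled SD within groups of 2.04 percentage points. Most of this sum is miR-191-5p.

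The share of miR-191-5p was 29.8, 27.9 and 23.2% at 0 h in the control line and 26.8, 29.6 and 24.6% in the Ikaros line. At 24 h it was 31.42, 30.48 and 29.95% in the control line and 23.05, 19.95 and 18.44% in the Ikaros line. At 0 h the lines differed by less than their spread (26.96 ± 3.38% and 26.99 ± 2.47%, SD, n = 3), and they did not overlap from 6 h on. At 12 h, the time of the widest gap, the mean was 31.27 ± 2.93% against 20.95 ± 4.46%.

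Line labels were permuted within each time over all 36 samples (100000 resamples, 2-sided), for every miRNA of the table, and p-values were adjusted over the 469. The mean share of miR-191-5p differed between the lines by -6.03 percentage points (28.95% and 22.92%, adjusted p = 0.000147 by the permutation test, lower in 15 of 18 pairs). That of miR-21a-5p differed by -0.782 percentage points (2.71% and 1.93%, adjusted p = 0.000459, lower in 14 of 18 pairs), and that of miR-142-5p by -0.756 (2.30% and 1.55%, adjusted p = 0.00565, lower in 15 of 18 pairs). Of the 8 members 3 passed, against a background of 42.2%, and with the differences of same-numbered pairs tested instead 5 passed. Both tests treat the 6 times as independent. The 2 to 24 h samples of 1 line and replicate number were flasks split from 1 expanded culture, so these p-values may be too small. The pairs added miR-21a-3p (-0.0274 percentage points, adjusted p = 0.0189, and 0.113 without pairs) and miR-142-3p (-0.162 percentage points, adjusted p = 0.0192, and 0.146 without pairs). Both also passed without pairs when miR-191-5p was left out of the total (adjusted p = 0.0371 and 0.0387). At a single time 3 samples against 3 cannot give an exact p below 0.1. Among the 3 members that passed, this smallest value was reached by miR-191-5p from 6 h on, by miR-21a-5p at 0, 2, 6 and 24 h, and by miR-142-5p at 0 and 6 h.

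Shares of 1 total move against each other. miR-10a-5p, a miRNA of the HoxB locus, held a mean share of 5.40% in the control line and 18.13% in the Ikaros line, with a log2 difference averaged over time of 1.77 (adjusted p = 1.53e-07 by limma). With miR-10a-5p left out of the total the share of miR-191-5p differed by -2.35 percentage points (adjusted p = 0.176) and the sum of the 8 by -3.47. The differences of miR-21a-5p and miR-142-5p stayed past the threshold with that total. On the samples of 0 h and 24 h alone none of the 3 passed (miR-191-5p -5.05, adjusted p = 0.138). With 3 samples against 3 at only 2 times there are few distinct relabellings, which limits how small p can be. For miR-21a-5p the share differences at these times also had opposite signs (-1.35 percentage points at 0 h and 0.46 at 24 h).

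**Figure D4:**
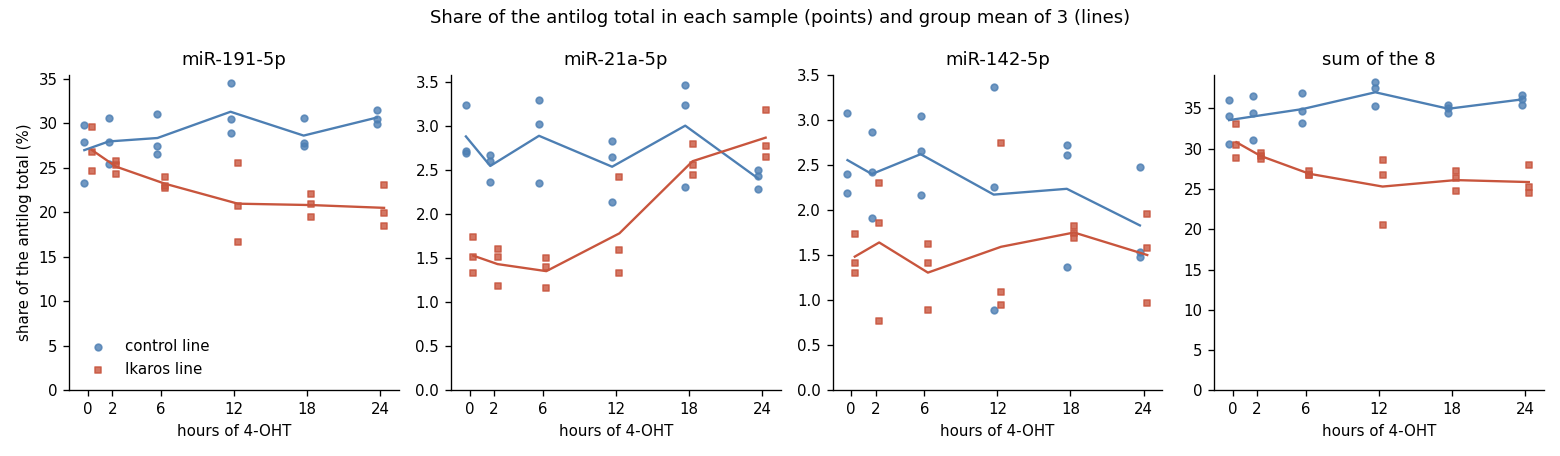
The share of the antilog total (y axis, percent, from 0, own scale in each panel) is plotted against hours of 4-OHT, with 1 point a sample and lines through the means of 3. The mean summed share of the 8 members in the Ikaros line is 30.8% at 0 h and 25.9% at 24 h, while the control means stay between 33.6% and 37.0%.

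A ratio within a sample is not changed by a factor common to that sample, although a correction for GC content and quantile normalization can change it. Averaged over time, 0 of 6 ratios differed between the lines at an unadjusted p under 0.05 by the permutation test, with p from 0.0915 to 0.798, and none would pass after adjustment. The average hides opposite signs. The log2 ratio of miR-21a-5p to miR-191-5p was -3.47, -3.36 and -2.85 in the control line at 0 h and -4.14, -4.47 and -3.83 in the Ikaros line. At 24 h it was -3.78, -3.61 and -3.63 in the control line and -3.06, -2.92 and -2.54 in the Ikaros line. The lines did not overlap at either time, with the Ikaros line lower at 0 h (difference -0.92) and higher at 24 h (0.84), and the average over time was -0.21 (permutation p = 0.172).

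miR-191-5p and miR-425-5p come from the same transcript, and their ratio is given for each sample. The log2 ratio was 7.42, 7.01 and 6.396 at 0 h in the control line and 7.28, 7.52 and 6.49 in the Ikaros line, which overlapped. At 24 h it was 7.82, 7.29 and 7.40 in the control line and 7.05, 6.61 and 5.62 in the Ikaros line, where every Ikaros sample was lower. The mean difference was 0.16 before induction, -0.72 and -0.81 at 12 and 18 h, and -1.08 at the last time, and averaged over time -0.33 (permutation p = 0.0915). Over all 36 samples the ratio ran from 5.62 to 8.09, a range of miR-191-5p from 49.0 to 273 times the level of miR-425-5p.

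The arm ratio of miR-425 is given in the same way. In the Ikaros line its log2 value was 4.80, 4.82 and 5.58 at 0 h and 5.78, 5.98 and 6.55 at 24 h, without overlap, and in the control line 5.53, 5.68 and 5.80 at 0 h and 5.09, 5.35 and 5.78 at 24 h, with overlap. These changes with time were not tested.

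**Figure D5:**
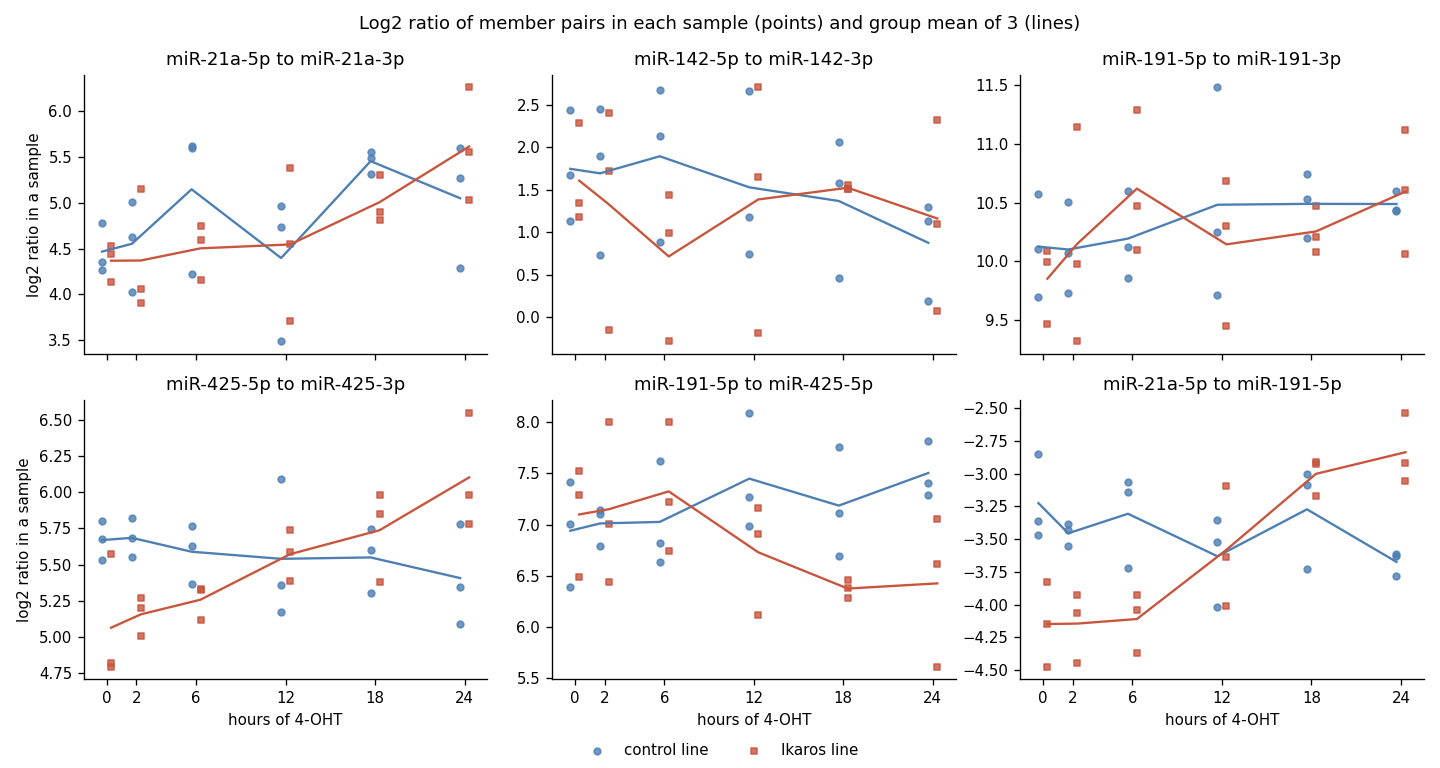
Each panel plots the log2 ratio of 2 members in the same sample (y axis, own scale in each panel) against hours of 4-OHT, with 1 point a sample and lines through the means of 3. For miR-21a-5p to miR-191-5p the Ikaros mean climbs from -4.15 at 0 h to -2.84 at 24 h and crosses the control line near 12 h.

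The miRNAs whose log2 values followed each member with a mean share of at least 1% most closely over the 36 samples were listed by Pearson's r, the 3 highest each. For miR-21a-5p they were miR-181a-5p (r = 0.69), miR-98-5p (0.66) and miR-181c-5p (0.64). For miR-142-5p they were miR-200a-3p (0.81), miR-429-3p (0.79) and miR-33-5p (0.75), and for miR-191-5p miR-182-5p (0.87), miR-3535 (0.83) and miR-7a-5p (0.74). The points share their libraries, normalization and 12 groups, so r is a description. None of the 9 is a member.

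A list of 20 other B-lineage and haematopoietic miRNAs was set beside the members, of which 19 were in the table. At 24 h 3 of the 19 were higher in the Ikaros line and 4 lower, where 17.9% of all miRNAs were higher and 22% lower, and the list's median log2 difference was -0.35 against -0.07 for all. The higher ones included miR-342-3p at 1.28 (adjusted p = 2.28e-07) and miR-15a-5p at 0.45 (adjusted p = 0.00824). The lower ones included miR-221-3p at -0.94 (adjusted p = 0.000132) and miR-34a-5p, a p53-induced miRNA, at -0.90 (adjusted p = 0.000103). At 0 h 1 was higher and 1 lower, the latter miR-221-3p at -0.91 (adjusted p = 0.000584 by limma). The excess of the 24 h difference over 0 h was -0.03 for miR-221-3p (adjusted p = 0.961) and -0.55 for miR-34a-5p (adjusted p = 0.134). It was 1.18 for miR-342-3p (adjusted p = 0.000580) and 0.32 for miR-15a-5p (adjusted p = 0.288).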

How the data were processed

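Small RNA libraries of 36 samples were sequenced by the authors, aligned with Novoalign to miRBase mouse miRNAs and counted with multiBamCov (bedtools), and the labels name mm10. The deposited log2 values were filtered by the authors on CPM, corrected for GC content (cqn), normalized (TMM), corrected for sequencing batch (ComBat) and averaged over technical replicates. Counts and depth per sample are not part of these values, so no counting error can be given. Versions of those tools are not given in the sources used here.

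The log2 values were used as deposited, without a filter. limma 3.58.1 (lmFit, eBayes with trend, R 4.3.3) was fitted with a mean for each of 12 groups, and p-values were adjusted over 469 miRNAs at a threshold of 0.05. Shares and log2 ratios were tested by permutation of line labels within each time (100000 resamples, 2-sided) in Python 3.11.15 with numpy 2.4.6, the shares adjusted over 469 miRNAs. The scripts were tested on simulated data. The culture batch in the labels pairs same-numbered samples of the lines, and their deviations from group means correlated at r = 0.34, 0.27, 0.41, 0.25, 0.06 and 0.26 from 0 h to 24 h. Every member of the name rule is reported, beside the 10 most abundant miRNAs, 3 neighbours by r and the list of 20. Members and lists were chosen with earlier results of these data known. Alternatives were a median or quantile scaling, a filter (mean log2 of at least 3), no trend, each replicate number left out, a culture batch or replicate block, a fit to the groups compared, and other totals for shares. Fits without 12 h, on 0 h and 24 h alone, and a total without miR-10a-5p were added after the data were seen. Replicates are separate cultures of 2 transduced lines, so p-values cover the spread between cultures, not between lines made anew.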

Additional observations from a re-analysis of the deposited data

Results flagged for a closer look

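The effect of time differed between the lines for miR-21a-5p by a test of the difference itself. The Ikaros minus control difference at 24 h exceeded that at 0 h by a log2 value of 1.21 ± 0.20 (adjusted p = 7.34e-05 by limma), and that at 2 h by 1.21 (adjusted p = 4.47e-05). The line by time interaction of miR-21a-5p over the 6 times had an adjusted p of 6.58e-05. With quantile normalization none of these 3 results passed, and without replicate 2 the interaction did not. In these units the Ikaros line changed by 0.95 over the 24 h and the control line by -0.27. In the fit to all samples, without a block or rescaling, no other member passed any of these 3 tests. Under some alternatives another member passed the test of an excess. Groups of 3 samples were too small to look for single outlying samples.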

How the results depend on the processing

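Of 213 values recomputed under an alternative for the 22 member results past their threshold, 168 kept direction and threshold, 44 lost the threshold and 1 changed sign, and 754 values were recomputed in all. The cause of each loss was not tested. Fits to fewer samples have fewer degrees of freedom, and whether this led to losses was not tested either. Quantile normalization took the number of members called to 0 at 0, 2, 12 and 24 h, for both excesses of 24 h and for the interaction, to 1 for the Ikaros line between 2 and 24 h and to 1 for the shares. It turned the line difference of miR-21a-5p to -0.035 at 24 h and its control change between 2 and 24 h to 0.29. By its construction it sets every value by its rank within the sample alone, and whether this led to the losses was not tested. It took the share difference to -0.326 for miR-142-5p, -1.54 for miR-191-5p and -2.51 for the sum, and the ratio of miR-21a-5p to miR-191-5p to -0.23, past an unadjusted p of 0.05, the 1 ratio to do so. Subtracting each sample's median moved all line differences up, by 0.01 at 2 h to 0.23 at 24 h. It left 0 members called at 12 h and 2 for the excess over 2 h, and it turned miR-425-5p to 0.032 at 0 h and miR-142-5p to 0.076 at 24 h. A fit to the groups compared called 3, 0, 2, 0 and 1 at 0, 2, 6, 12 and 18 h, 2 for the excess over 0 h, and 1 for the Ikaros line between 2 and 24 h. Without the 12 h samples 2 were called at 0 h, at 6 h and for the excess over 0 h and 3 at 24 h, and the filter on low values gave 2 at 6 h. Leaving out a replicate number gave 0 to 1 members at 12 h, 0 to 1 at 24 h, 1 to 2 for the Ikaros line between 2 and 24 h and 1 to 2 for it over 6 times, and 0 to 1 for the interaction. The log2 difference of miR-425-5p at 0 h ran from -0.14 to 0.061, that of miR-191-5p at 2 h from -0.38 to 0.15, and the share difference of miR-142-5p from -0.880 to -0.608. The culture batch as a replicate block called 2 for the excess over 2 h, and same-numbered pairs called 5 for the shares, and no other count was changed by a block. On 0 h and 24 h alone 0 members were called for the average and for the shares, with -0.444 for miR-21a-5p, -0.700 for miR-142-5p and -5.05 for miR-191-5p. Without miR-10a-5p in the total miR-191-5p was at -2.35 and the sum at -3.47.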
